A study of Mus musculus with 8 samples.

Results

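Hub anchors were places in the mouse liver genome that held 10 or more chromatin loop partners in an anti-HA in-situ ChIA-PET library made at ZT10 from knock-in mice whose endogenous REV-ERBα carries an HA tag. Loop anchors of that library that overlapped by at least 1 bp were merged, the distinct merged anchors linked to each were counted, and those with 10 or more were kept. This gave 987 hubs of 51930 merged anchors (1.90%). The loop counts of the ZT10 library chose the hubs, so every ZT10 value below is a description without a test.

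In-situ ChIA-PET cuts fixed chromatin with AluI, ligates ends that lie close together, enriches the bound fragments with an antibody and sequences the ligated pairs; a paired-end tag (PET) is one such pair. The libraries used here were 2 from REV-ERBα3HA/3HA knock-in livers without viral vector, 1 taken at ZT10 and 1 taken at ZT22, and 4 from livers at ZT10 of REV-ERBαf/f REV-ERBβf/f mice. These floxed mice received AAV8-TBG-Cre together with AAV8-TBG vectors for 3HA-tagged REV-ERBα, either the ΔhIDR form (2 libraries) or the WT form (2 libraries), so the deletion of both REV-ERB genes was shared by the ΔhIDR and WT groups. TBG is a hepatocyte promoter, so other liver cells kept the floxed alleles, and the vector-made protein was not under the endogenous promoter. The other 2 samples, made with an antibody to CTCF, were not analysed here. Nothing in the labels said that replicates came from separate animals, and p-values therefore measure the spread between these libraries only.

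REV-ERBα is a nuclear receptor of the circadian clock that represses its targets by recruiting the NCoR corepressor with HDAC3. It binds as a monomer to the AGGTCA hexamer with an A/T-rich 5′ flank (the RORE, shared with the activating ROR receptors) or as a dimer to paired elements. In mouse liver its protein is abundant late in the light phase, near ZT10, and low at night, near ZT22, and its known targets include the activator genes Arntl and Npas2 of the clock and genes of lipid and glucose metabolism.

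A protein-coding promoter, defined as 250 bases before to 50 after a gene's start, was overlapped by 140 of the 987 hubs. The 176 promoters of 143 genes at these hubs were searched on both strands. Of them, 5 (2.84%) held the RORE core TAGGTCA, against 2.32% of all 21262 protein-coding promoters of the same length. They are shown because they carry the letters that REV-ERBα recognises, with that core in capitals on either strand, and the promoter of Npas2 is added in lower case because it lies in the hub with the most partners and held no AGGTCA. All are RefSeq sequences on GRCm38.p6, 5′ to 3′ along the gene's strand: Arntl at chr7:113207261-113207560 (+), Nfil3 at chr13:52980990-52981289 (-), Bhmt at chr13:93637709-93638008 (-), Abcb11 at chr2:69342567-69342866 (-), Slc45a3 at chr1:131970359-131970658 (+) and Npas2 at chr1:39194022-39194321 (+).
Arntl promoter: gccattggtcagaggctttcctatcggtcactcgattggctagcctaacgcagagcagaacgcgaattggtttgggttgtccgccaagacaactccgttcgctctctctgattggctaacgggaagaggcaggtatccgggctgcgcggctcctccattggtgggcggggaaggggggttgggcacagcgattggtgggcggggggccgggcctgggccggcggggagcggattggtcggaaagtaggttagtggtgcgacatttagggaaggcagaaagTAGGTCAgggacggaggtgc
Nfil3 promoter: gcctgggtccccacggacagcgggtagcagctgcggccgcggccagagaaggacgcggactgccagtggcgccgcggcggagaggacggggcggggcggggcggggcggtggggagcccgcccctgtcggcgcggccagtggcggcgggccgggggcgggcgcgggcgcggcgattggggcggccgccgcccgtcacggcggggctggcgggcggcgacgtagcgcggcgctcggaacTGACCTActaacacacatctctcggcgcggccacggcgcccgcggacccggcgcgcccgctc
Bhmt promoter: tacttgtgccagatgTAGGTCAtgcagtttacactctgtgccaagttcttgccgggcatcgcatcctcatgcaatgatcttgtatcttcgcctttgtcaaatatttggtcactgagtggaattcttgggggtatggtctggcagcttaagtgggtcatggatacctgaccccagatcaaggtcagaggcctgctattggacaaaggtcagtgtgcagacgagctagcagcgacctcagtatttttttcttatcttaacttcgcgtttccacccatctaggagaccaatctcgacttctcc
Abcb11 promoter: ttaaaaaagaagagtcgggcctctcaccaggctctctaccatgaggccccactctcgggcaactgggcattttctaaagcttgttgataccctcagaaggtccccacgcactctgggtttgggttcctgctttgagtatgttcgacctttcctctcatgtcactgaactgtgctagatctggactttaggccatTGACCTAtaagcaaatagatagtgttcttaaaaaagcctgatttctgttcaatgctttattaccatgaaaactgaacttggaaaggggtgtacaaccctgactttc
Slc45a3 promoter: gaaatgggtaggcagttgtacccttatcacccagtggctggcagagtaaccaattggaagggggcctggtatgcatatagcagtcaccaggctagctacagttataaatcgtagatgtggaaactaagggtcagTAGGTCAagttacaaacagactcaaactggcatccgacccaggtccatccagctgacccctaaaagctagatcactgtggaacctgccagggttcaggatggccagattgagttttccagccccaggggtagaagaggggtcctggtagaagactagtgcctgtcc
Npas2 promoter: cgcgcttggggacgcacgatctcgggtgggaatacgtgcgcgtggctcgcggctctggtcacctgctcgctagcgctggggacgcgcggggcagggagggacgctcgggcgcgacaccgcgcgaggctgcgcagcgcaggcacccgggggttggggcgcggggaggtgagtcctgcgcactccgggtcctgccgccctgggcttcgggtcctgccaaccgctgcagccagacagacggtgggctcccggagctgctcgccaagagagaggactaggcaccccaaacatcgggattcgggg

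The core lay 30 bases after the start in Arntl, which encodes the clock activator BMAL1, and 12 bases before it in Nfil3, a clock-output repressor. It lay 56 bases before the start in Abcb11, the bile salt export pump, 116 in Slc45a3, a solute carrier, and 235 in Bhmt, a methyltransferase of methionine metabolism. The hexamer AGGTCA, which is contained in that core, stood in 29 hub promoters (16.5%), against 14.7% of all promoters. The paired elements RevDR2 (AGGTCA, then NN, then AGGTCA) and DR1 (AGGTCA, then N, then AGGTCA) were in none of the hub promoters and in 0% and 0.0470% of all promoters. Of the letters of other factors, the forkhead element TGTTTAC stood in 3.98% of hub promoters against 3.01% of all, the C/EBP element TTGCNNAA in 11.4% against 10.2%, the D-box TTATGNAA in 2.27% against 3.09%, the E-box CACGTG in 9.09% against 7.84%, and the core letters of the CTCF motif in 18.2% against 9.88%. Hub promoters had a median GC content of 60.7%, against 56.3% for all promoters, and AGCT, the AluI site at which fragments were cut, stood in 81.8% against 76.4%. Promoters at anchors with 5 to 9, 2 to 4 and 1 partner had a median GC content of 60%, 60.3% and 60.3%. In that order AGGTCA stood in 16.6%, 14.4% and 11.9% of them, and TAGGTCA in 3.32%, 2.78% and 1.62%, so neither was highest at hubs. AGCT stood in 86.9%, 84.3% and 82.3%, each above the hub share. The CTCF letters stood in 11.03%, 12.4% and 13.2%, each below the hub share. The part of base composition in these shares was not tested. A match describes letters in a window of 300 bases and not a binding site, and most of each hub lay outside such windows.

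The hubs were a long tail of the partner counts. Among all merged anchors, 36484 had 1 partner, 10836 had 2 to 4, 3623 had 5 to 9 and 987 had 10 or more. Within the hubs the median was 12 partners and the maximum 37, with 204 hubs at 15 or more, 54 at 20 or more and 5 at 30 or more. The hubs held 36 to 793 ZT10 PETs (median 118) and were 1713 to 16606 bp wide (median 4593 bp, against 1000 bp over all merged anchors). Width and partner count are linked by construction, because each overlapping loop end both widens an anchor and can add a partner. Just inside the threshold, the 283 hubs with 10 partners had 36 to 322 PETs (median 86) and a median width of 4128 bp. Just outside it, the 326 anchors with 9 partners had 30 to 791 PETs (median 80) and a median width of 3954 bp, so the threshold cut a continuous range.

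**Figure D1:**
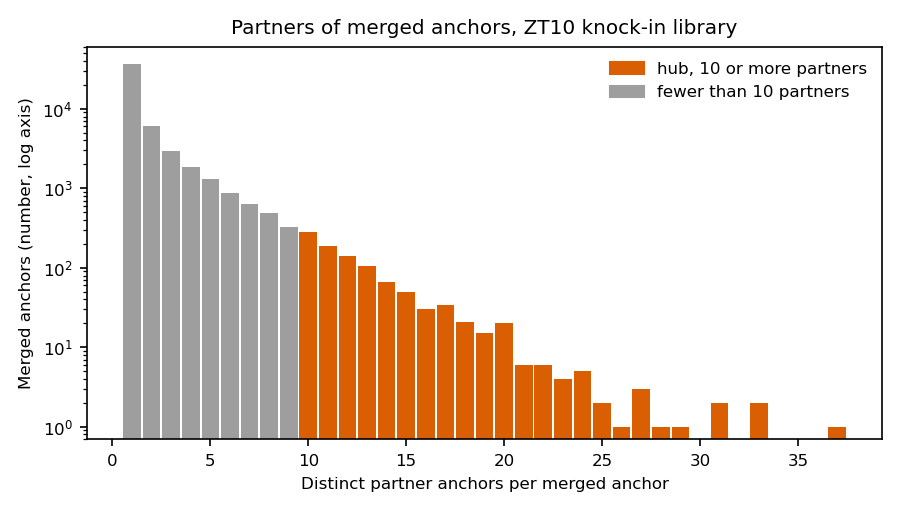
Number of merged anchors at each count of distinct partners in the ZT10 knock-in library (log vertical axis), with the hubs at 10 or more partners in a separate colour. The counts decline from 36484 anchors with 1 partner to 283 with 10 and a single anchor with 37, without a break at the threshold.

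The files list loops with 3 PETs or more, so a loop that is not listed had 0 to 2. The ZT10 knock-in library listed 57807 loops with 319804 PETs, the ZT22 knock-in library 40530 with 131476, the ΔhIDR libraries 47909 with 178263 and 41955 with 160529, and the WT libraries 30973 with 103224 and 57989 with 203124. The listed loops had a median span of 40.2 kb at ZT10 and 528 kb at ZT22, against 648 and 1074 kb in the ΔhIDR libraries and 962 and 841 kb in the WT libraries. The ZT10 knock-in library thus stood apart from the other 5 in the span of its loops, and the part of this in the contrast between ZT10 and each other library was not tested.

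Loops at hubs were many and rich in PETs, and few of them were very long. In the ZT10 library 15485 loops had a hub at 1 end or both, 26.8% of its loops with 36.4% of its PETs. They had a mean of 7.52 PETs, against 4.80 in loops without a hub, and a median span of 47.6 kb against 37.2 kb. Spans over 2 Mb made up 1.29% of hub loops and 10.9% of loops without a hub. A low share of long loops was not particular to hubs. Spans of at most 500 kb made up 97.1% of loops at hubs and 97.0% at anchors with 5 to 9 partners. The shares were 95.1% at anchors with 2 to 4 partners and 77.2% at those with 1. The median over hubs of the median distance to a partner was 51.3 kb, and that of the distance to the farthest partner was 289 kb.

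The share of hubs near a gene end was close to that of all anchors within 5 kb, and which was higher turned with the window. An end of a protein-coding gene was within 5 kb of 271 hubs (27.5%), close to the 26.9% of all merged anchors, and the class with 2 to 4 partners was higher, at 33.5%. A further 316 hubs (32.0%, against 38.8% of all anchors) lay inside a gene and farther from its ends, and 400 (40.5%, against 34.3%) lay between genes. A protein-coding promoter was overlapped by 14.2% of hubs and 6.57% of all anchors. The share was 14.5% at anchors with 5 to 9 partners and 11.5% at those with 2 to 4, so it was not particular to hubs. Measured from the centre, which does not depend on width, 22.3% of hubs and 25.2% of all anchors lay within 5 kb of a gene end. Within 2 kb the shares were 21.5% of hubs and 17.4% of all anchors, and within 25 kb they were 51.1% and 56.2%. Of the 716 hubs away from gene ends, 635 (88.7%) had a loop partner within 5 kb of a gene end. Partners of 169 of these hubs lay near the ends of 3 genes or more, and 81 hubs had no such partner. Among partner anchors that were not hubs themselves, 24.5% were near a gene end, below the 26.9% of all merged anchors. Each hub has many partners, so a high share of hubs with such a partner can follow from their number. The 88.7% therefore does not show that hubs reach genes more than other anchors do. By chromosome, chromosome 8 held 91 hubs (3.29% of its anchors), chromosome 13 held 74 (2.89%) and chromosome X held 5 (0.553%).

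Partners were often unevenly placed around a hub. In 290 hubs (29.4%) at least 80% of partners lay on 1 side, and in 62 hubs all of them did, whereas 324 hubs (32.8%) had 40 to 60% on each side. Among the 136 hubs whose overlapped promoters were on 1 strand, 830 partner links pointed upstream of the gene and 953 into or beyond it. More partners were upstream in 57 of these hubs, more were downstream in 70, and 9 were equal.

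The 987 hubs had 629 distinct nearest protein-coding genes. Irs2, an adaptor of the insulin receptor, was nearest to 15 hubs, Zmiz1, a transcriptional coregulator, to 12, Dapk1, a death-associated kinase, to 11, and Rreb1, a zinc-finger transcription factor, to 10. Irf2bp2, a transcriptional corepressor, was nearest to 9, while Foxo1, the insulin-regulated transcription factor, and Pik3r1, a regulatory subunit of PI3-kinase, were each nearest to 7. Proximity along the genome does not say which gene a hub acts on.

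The 20 hubs with the most partners had 216 to 793 ZT10 PETs (median 427.5), and 7 were at a gene end, 3 inside a gene and 10 between genes. The first was at the promoter of Npas2, the BMAL1 partner and paralogue of CLOCK (chr1:39188588-39196072), with 37 partners, 22 upstream and 15 downstream of the gene's start. Its knock-in counts were 509 PETs at ZT10 and 7 at ZT22, beside 4 and 3 in the ΔhIDR libraries, and 20 and 19 in the WT libraries. It was high at ZT10, and both ΔhIDR counts were below both WT counts.

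The second lay between genes, 163432 bp from Lpp, a focal-adhesion protein gene (chr16:24220701-24229918), with 33 partners. It had 519 PETs at ZT10 and 0 at ZT22, 6 and 3 in the ΔhIDR libraries and 3 and 0 in the WT libraries. The next, 139323 bp from Irf2bp2 (chr8:126733309-126739901), also had 33 partners. It had 491 PETs at ZT10 and 0 at ZT22, 0 and 8 in the ΔhIDR libraries and 0 and 3 in the WT libraries. In both, the ΔhIDR and WT counts overlapped or met.

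Hubs 4 and 5 by partner count both had Gm44812, a predicted gene, as nearest gene and 31 partners each; one lay inside it and the other 213703 bp away. Their ZT10 counts were 441 and 318 PETs, and no count in the other 5 libraries was above 3. The Dusp6 hub, at the gene of an ERK phosphatase (chr10:99259863-99274717), had 28 partners, 14 on each side. It had 475 PETs at ZT10 and 3 at ZT22, 10 and 3 in the ΔhIDR libraries and 9 and 9 in the WT libraries.

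Others of the 20 lay between genes, as did 3 of the 4 with Irs2 as nearest gene. The hub near Btg1, an antiproliferative gene, had 348 PETs at ZT10 and 3 at ZT22, 11 and 0 in the ΔhIDR libraries and 0 and 0 in the WT libraries. The hub near Phlda1 had 330 PETs at ZT10 and 3 at ZT22, 3 and 3 in the ΔhIDR libraries and 0 and 3 in the WT libraries. The hub near Ust, a sulfotransferase gene, had 222 PETs at ZT10 and 0 at ZT22, 3 and 0 in the ΔhIDR libraries and 0 and 0 in the WT libraries. The ΔhIDR and WT counts touched or overlapped at all 3. At the promoter of Ddah1, an enzyme that breaks down methylated arginine, 18 of 25 partners lay downstream of the start, and 12 lay within the gene. That hub had 400 PETs at ZT10 and 0 at ZT22, 5 and 0 in the ΔhIDR libraries and 0 and 3 in the WT libraries.

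The Bcl6 hub, at the promoter of a transcriptional repressor (chr16:23988148-23997845), was lopsided, with 25 of 27 partners upstream of the gene. It had 414 PETs at ZT10 and 0 at ZT22, 3 and 5 in the ΔhIDR libraries and 6 and 4 in the WT libraries, so the groups overlapped. The Dlc1 hub, inside the gene, had 24 of its 25 partners within Dlc1. It had 296 PETs at ZT10 and 0 at ZT22, 0 and 6 in the ΔhIDR libraries and 6 and 3 in the WT libraries.

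**Figure D2:**
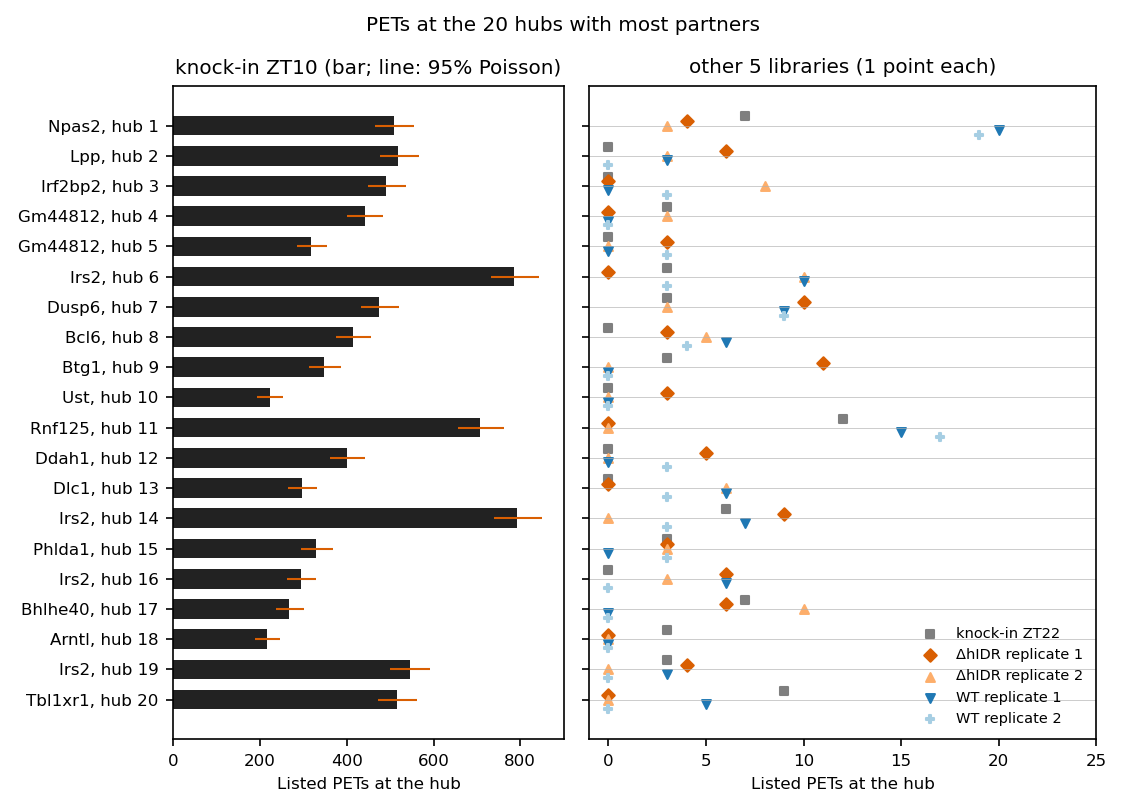
PETs of the listed loops at each of the 20 hubs with the most partners, named by the nearest gene and rank: bars give the ZT10 knock-in library with its 95% Poisson interval, which covers counting error only, and points give the ZT22 knock-in, ΔhIDR and WT libraries on a scale of their own. ZT10 counts run between 216 and 793, and the highest count in any of the other 5 libraries is 20, in a WT library at the Npas2 hub.

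Genes of the circadian clock were nearest to 13 hubs. Besides Npas2, with 3 hubs, they were Nfil3 (3), Rora (2, a ROR activator), Hlf (2, a PAR-domain activator), Bhlhe40 (1, a repressor of clock genes), Arntl (1) and Nr1d1 (1, the gene of REV-ERBα itself, in a hub shared with its antisense neighbour Thra). The Bhlhe40 hub had 24 partners and 267 PETs at ZT10 and 7 at ZT22, 6 and 10 in the ΔhIDR libraries and 0 and 0 in the WT libraries. The Arntl hub had 24 partners, 15 of them inside the gene, and 216 PETs at ZT10 and 3 at ZT22, with 0 in each of the 4 vector libraries. The Nr1d1 hub had 13 partners, 10 of them downstream of the start, and 259 PETs at ZT10 and 3 at ZT22, 5 and 0 in the ΔhIDR libraries and 5 and 0 in the WT libraries.

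The Npas2 hub 85887 bp before the gene had 15 partners and 310 PETs at ZT10 and 4 at ZT22, 0 and 3 in the ΔhIDR libraries and 3 and 6 in the WT libraries. The Nfil3 promoter hub had 14 partners, 5 of them hubs, and 119 PETs at ZT10 and 3 at ZT22, with 0 in each vector library. The Hlf promoter hub had 10 partners, 9 of them downstream, and 135 PETs at ZT10 and 3 at ZT22, again with 0 in each vector library. The Rora hubs lay far inside the gene, with 13 and 10 partners and 175 and 154 ZT10 PETs, and 12 and 10 of those partners were within Rora. Over the 13 clock hubs, 5 had no listed PET in any vector library. Of all 987 hubs, 743 had at least 1 listed PET there. With so few clock hubs, the 5 are no result about clock genes.

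Lists of genes with known roles in liver were set beside the hubs. A hub lay within 5 kb of an annotated gene end for 41 of 199 distinct members of 10 liver lists (20.6%), against 303 of 21883 protein-coding genes (1.38%). A hub inside a gene and farther from its ends was not counted. This left out the Arntl hub, although it overlapped a promoter of that gene. The lists were drawn up with earlier results of these data known, so the share is not independent evidence. By list the counts were 5 of 19 core clock genes, 6 of 16 genes of glucose control, 5 of 15 corepressors and repressors, 4 of 18 genes of xenobiotic metabolism, 4 of 18 liver transcription factors, 4 of 22 genes of cholesterol and bile acids, 5 of 26 secreted proteins, 3 of 18 acute-phase genes, 3 of 28 genes of lipogenesis and 2 of 19 genes of fatty acid oxidation. Neighbouring genes can share a hub: the 5 secreted proteins rested on 3 hubs, as Apoa1, Apoa4 and Apoc3 share one, and the 3 acute-phase genes on 2, as Saa1 and Saa2 share one. Of 33 marker genes of lymphocytes, cholangiocytes and stellate, endothelial and Kupffer cells, 0 had a hub within 5 kb of a gene end and 14 had any merged anchor. At the share of all genes, fewer than 1 of the 33 would have a hub, so this 0 is no result about those cells.

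In glucose control the hubs were at Irs2, Irs1 (both insulin receptor adaptors), Ppp1r3b and Ppp1r3c (both glycogen-targeting subunits of protein phosphatase 1), Igfbp1 (a secreted IGF-binding protein) and Foxo1. The Ppp1r3b hub had 386 PETs at ZT10 and 6 at ZT22, with 0 in each vector library. The Ppp1r3c hub had 207 PETs at ZT10 and 0 in each of the other 5 libraries. In lipid and bile acid metabolism, the hub at Cyp7a1, whose product catalyses the slow first step from cholesterol to bile acids, had 181 PETs at ZT10 and 3 at ZT22, 5 and 0 in the ΔhIDR libraries and 0 and 0 in the WT libraries.

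Insig2, which holds back SREBP processing, had a hub with 263 PETs at ZT10 and 7 at ZT22, 4 and 20 in the ΔhIDR libraries and 3 and 0 in the WT libraries. This was the highest count in a ΔhIDR library at any hub. Among genes of nuclear receptors and liver factors, hubs lay at Nr1h4 (the bile acid receptor FXR, 150 ZT10 PETs), Ppara (the fatty acid receptor, 130), Foxa2 (a forkhead pioneer factor, 212) and Cebpa (a hepatocyte leucine-zipper factor, 72). Among corepressors, the hub at Tbl1xr1, whose product is a subunit of the NCoR complex, had 356 PETs at ZT10 and 7 at ZT22, 5 and 14 in the ΔhIDR libraries and 9 and 7 in the WT libraries. That hub had a listed loop in every library, and the ΔhIDR and WT counts overlapped.

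Hubs were linked to each other. Of the 15485 hub loops, 2107 (13.6%) ran between hubs, joining 1130 pairs. As a share of distinct partner links, 2260 of the 12597 links from hubs (17.9%) led to another hub. Hubs held 15.3% of all loop ends, but that share counts loops and not distinct links, so it is no like-for-like background for the share of links. Hub-to-hub loops had a mean of 12.7 PETs, against 6.71 in loops from a hub to another anchor, and 30.9% had 10 PETs or more, against 14.0%. Their median span was 70.1 kb, against 45.0 kb. At least 1 hub partner was found for 734 hubs (74.4%), and 253 had none.

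Through these links the hubs fell into 212 connected groups, of which 101 were pairs and 37 held 5 hubs or more, with 284 hubs among them. The largest held 19 hubs in 333 kb at Irs2 and Col4a1, a type IV collagen gene (chr8:10851643-11185072), and 117 of its 171 possible pairs (68.4%) were joined, by 229 loops with 2324 PETs. Its hubs had 44 to 793 ZT10 PETs each. Summed over the 19 hubs, with a PET between neighbours counted at both, there were 5104 at ZT10 and 52 at ZT22, 46 and 54 in the ΔhIDR libraries, and 38 and 33 in the WT libraries. Per 10000 listed PETs these sums were 2.58 and 3.36 in the ΔhIDR libraries against 3.68 and 1.62 in the WT libraries, so the groups overlapped.

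**Figure D3:**
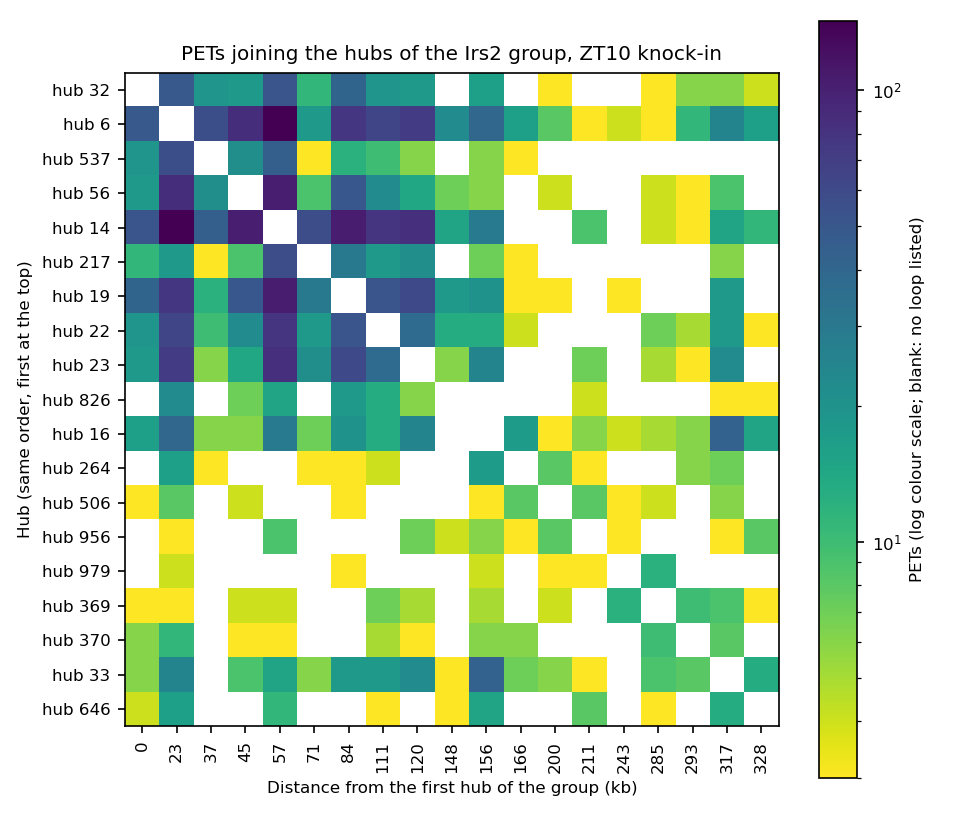
The 19 hubs of the largest group, in order along the chromosome, top to bottom and left to right, with the PETs of the ZT10 loops that join each pair as a colour on a log scale (blank where no loop is listed) and the horizontal axis marked with the distance from the first hub in kb. Pairs joined by loops reach from one end of the group to the other, and 117 of 171 pairs are joined.

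Other groups differed in size and closure. The 16 hubs at Tarbp1, Irf2bp2 and Tomm20 spanned 391 kb with 69.2% of pairs joined, the 12 at Zmiz1 spanned 363 kb with 84.8%, and all 21 pairs of the 7 Foxo1 hubs were joined. The group of 18 hubs at Auh, Nfil3, Ror2 and Dapk1 extended over 7978 kb with 42.5% of pairs joined. Long links of this kind were few, since 10 of the 1130 pairs were more than 2 Mb apart. The strongest pair was at Slc34a2, a phosphate transporter gene, with 1 loop of 289 ZT10 PETs over 50.9 kb and 3 PETs at ZT22, and 0 in each vector library. The pair between Coq8a and Psen2 had 231 ZT10 PETs in 4 loops, and 0 in each of the other 5 libraries. A pair at Adra1b, an adrenergic receptor gene of hepatocytes, had 213 ZT10 PETs in 2 loops and 9 at ZT22, 0 and 0 in the ΔhIDR libraries and 0 and 6 in the WT libraries. A pair between Dhrs3, a retinaldehyde reductase gene, and Vps13d had 180 ZT10 PETs in 10 loops, and 0 in each of the other 5 libraries. The pair at Hopx had 177 and that at Arhgap5 had 172, and the pair between Ugt1a1, the bilirubin-conjugating enzyme, and Hjurp had 155.

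The same places were then examined in the other libraries. Per 10000 listed PETs, the knock-in libraries had 3653 at hubs at ZT10 and 148 at ZT22. Hubs held 128 and 92.0 in the ΔhIDR libraries (110 ± 25.1, SD, n = 2) and 89.2 and 73.3 in the WT libraries (81.2 ± 11.3, SD, n = 2). Both ΔhIDR libraries were above both WT libraries, but the gap between the nearest of them, 92.0 and 89.2, was small beside the spread within either group. With 2 libraries a group the smallest p of an exact two-sided permutation test is 0.333, so none was run. Loops with no anchor narrower than 700 bp put 1064 and 422 at hubs in the ΔhIDR libraries against 318 and 220 in the WT libraries, and loops of at most 2 Mb put 165 and 119 against 123 and 92.5, where the groups overlapped. The difference of the group means, 28.55, was 10.8 without the first ΔhIDR library and 46.3 without the second. The ZT10 value was fixed by the choice of hubs, and there is no replicate check with 1 library at each knock-in time; its excess over any other library carries no test.

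At least 1 listed loop at the hub was found for 451 hubs (45.7%) at ZT22, for 442 and 298 in the ΔhIDR libraries, and for 230 and 334 in the WT libraries. At ZT22 the share was 29.3% at anchors with 5 to 9 partners and 12.8% over all merged anchors. Hubs were wider, and in a window of 2 kb at the centre the ZT22 shares were 32.2% at hubs and 22.9% at anchors with 5 to 9 partners. The order was the same in each vector library. None of the other 5 libraries had a loop at 154 hubs, and all 5 had one at 11. Per library, the median hub had 0 PETs in each of the 5. The highest count at any hub was 19 at ZT22, 19 and 20 in the ΔhIDR libraries, and 20 and 23 in the WT libraries.

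By PETs summed over the other 5 libraries, the Npas2 promoter hub came first with 53, followed by the hubs near Alg10b with 51, and at Rnf125 and Crls1 with 44 each. The hub at Crls1, the cardiolipin synthase gene, had 314 PETs at ZT10 and 3 at ZT22, 13 and 8 in the ΔhIDR libraries and 11 and 9 in the WT libraries, so the groups overlapped. The hub near Pcsk6, a proprotein convertase gene, had 148 at ZT10 and 9 at ZT22, 4 and 18 in the ΔhIDR libraries and 7 and 3 in the WT libraries. The hub inside Nr5a2, the gene of the liver nuclear receptor LRH-1, had 262 at ZT10 and 15 at ZT22, 6 and 5 in the ΔhIDR libraries and 7 and 3 in the WT libraries. None of these hubs separated ΔhIDR from WT, unlike those near Alg10b, at Rnf125 and at Npas2.

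In the libraries that did not choose them, hubs held more PETs in a window of fixed width, but not always per kb, than anchors with fewer partners. Counted in a fixed window of 2 kb at each anchor's centre and per 1000 windows and per 100000 PETs of the library, the ZT22 library had 1010 at hubs, 665 at anchors with 5 to 9 partners, 502 at those with 2 to 4 and 352 at those with 1. The first and second ΔhIDR libraries had 875 and 535 at hubs and 323 and 293 at anchors with 1 partner. The first and second WT libraries had 535 and 443 at hubs and 303 and 288 at anchors with 1 partner. The order of the classes held in each library except the second WT library, where anchors with 2 to 4 partners had 282. Per kb of anchor instead, where wide anchors hold more sequence away from their centre, hubs were below anchors with 1 partner in 3 libraries: 0.190 against 0.217 PETs per kb and 100000 PETs in the second ΔhIDR library, and 0.190 against 0.227 and 0.153 against 0.216 in the WT libraries. These windows share cells and chromatin, and no test was made across them.

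**Figure D4:**
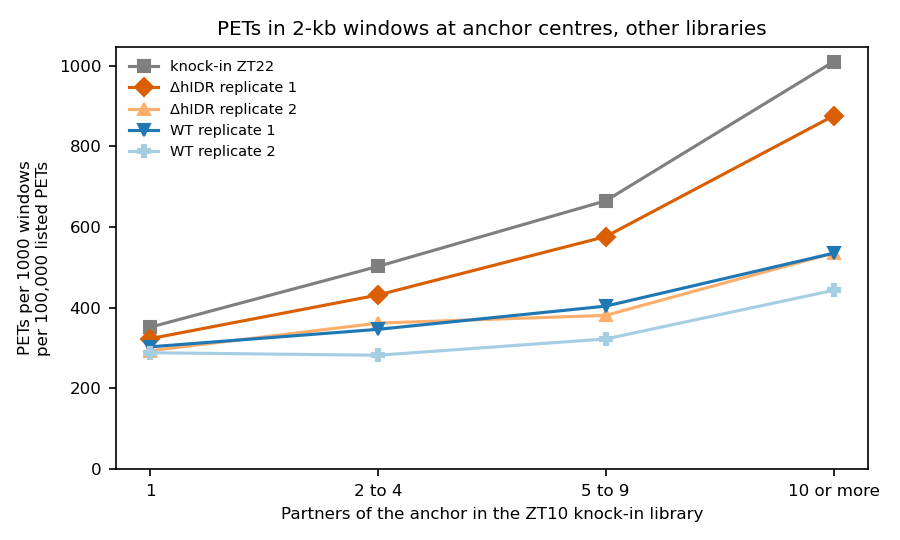
PETs per 1000 windows of 2 kb and per 100000 PETs of the library, for merged anchors grouped by their number of ZT10 partners, in the 5 libraries that did not choose the hubs. Hubs are highest in each library, between 443 in the second WT library and 1010 at ZT22.

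Individual hub loops seldom recurred. A ZT10 hub loop was counted as present in another library when both its anchors overlapped those of a listed loop by at least 1 bp. This held for 1.27% of hub loops at ZT22, 0.898% and 0.342% in the ΔhIDR libraries, and 0.368% and 0.497% in the WT libraries. Loops without a hub recurred at 0.764% at ZT22, 0.485% and 0.206% in the ΔhIDR libraries, and 0.170% and 0.220% in the WT libraries. Hub loops had more PETs, and among loops of 10 PETs or more the shares were 4.55% for hub loops against 4.56% for the rest at ZT22, 3.25% against 3.45% and 1.51% against 1.33% in the ΔhIDR libraries, and 1.55% against 1.22% and 1.82% against 1.33% in the WT libraries. Of the loops that the other libraries listed at hubs, 246 of 594 (41.4%) at ZT22 ended at a place that was already a ZT10 partner of that hub. The counts were 187 of 601 and 89 of 385 in the ΔhIDR libraries, and 73 of 274 and 95 of 430 in the WT libraries. Hubs were chosen for having many partners, and the same share was not computed for anchors with fewer. These counts therefore do not measure how far the contacts of hubs persisted.

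Of the 15485 hub loops, 15001 were listed in none of the other libraries, 451 in 1, 28 in 2 and 5 in 3. The 5 lay at Nav2, Irs2, Cep85l, between Pdcl3 and Npas2, and between Clec2d and Cd69. The loop from the Npas2 promoter hub to a hub at Pdcl3, over 126 kb, had 64 PETs at ZT10 and 3 at ZT22, 0 and 0 in the ΔhIDR libraries, and 5 and 6 in the WT libraries. The loop inside Nav2, a neuron navigator gene, had 154 at ZT10 and 7 at ZT22, 3 and 0 in the ΔhIDR libraries, and 0 and 3 in the WT libraries.

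ΔhIDR was compared with WT at every merged anchor that had at least 6 PETs over the 4 vector libraries, 6073 anchors of which 484 were hubs; the other 503 hubs were too sparse. In edgeR's quasi-likelihood test with Benjamini-Hochberg adjustment, 0 of 6073 anchors passed the threshold of 0.05 (0% of those tested) and 0 of 484 hubs did. An unadjusted p under 0.05 was reached by 17 of the 6073 anchors and, among these, by 10 of the 484 hubs. Hubs were wider and could collect more PETs, and the part of this in these counts was not tested. The smallest adjusted p was 0.337. DESeq2 also called 0, with 42 anchors at an unadjusted p under 0.05. With TMM factors in edgeR 0 were called, and the anchors at an unadjusted p under 0.05 numbered 531, of which 346 were higher and 185 lower in ΔhIDR, against 5 higher and 12 lower without them. The biological coefficient of variation was 1.84, and simulated 4-fold and 8-fold changes at this depth were recovered in 0 of 114 and 0 of 124 changed anchors that could be tested, so changes of these sizes could not be shown with these counts and this spread between libraries.

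As a description, both ΔhIDR shares of library PETs were above both WT shares at 95 of the 484 tested hubs (19.6%), against 13.7% of all tested anchors. Both were below at 40 hubs (8.26%), against 8.51%. The median log2 ratio of ΔhIDR over WT was 0.48 over tested hubs and 0.23 over all tested anchors. The hubs tested were those with PETs in these libraries and not all hubs.

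Among hubs, the smallest p-values were at places with lower counts in ΔhIDR, and none passed the adjustment. The hub near Alg10b, a glucosyltransferase gene (chr15:90341039-90348881), had 0 and 0 PETs in the ΔhIDR libraries against 16 and 23 in the WT libraries (edgeR adjusted p = 0.337). The hub near Cpne8, a copine gene, its partner over 52.6 kb, had 0 and 0 against 16 and 13 (edgeR adjusted p = 0.557). The loop that joined them had 173 PETs at ZT10 and 0 at ZT22, 0 and 0 in the ΔhIDR libraries, and 10 and 8 in the WT libraries, the 8 being the sum of 2 listed loops. The group counts did not overlap at either hub.

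The hub at Rnf125, a ubiquitin ligase gene, had 0 and 0 PETs in the ΔhIDR libraries against 15 and 17 in the WT libraries, with 708 at ZT10 and 12 at ZT22 (edgeR adjusted p = 0.557). At the Npas2 promoter hub the log2 ratio of ΔhIDR over WT was -2.75 ± 0.72 (SE, edgeR adjusted p = 0.557). The hub near Pdcl3, also linked to Npas2, had 0 and 0 against 14 and 11. With edgeR's default filter for low counts, 24 anchors were tested and 4 passed, all of them hubs with lower counts in ΔhIDR: Alg10b (adjusted p = 0.000964), Npas2 (0.00136), Rnf125 (0.0319) and Cpne8 (0.0489). Alg10b, Rnf125 and Cpne8 had 0 in both ΔhIDR libraries, and Npas2 had 4 and 3 there against 20 and 19 in the WT libraries. All 4 passed that filter only through the WT libraries, so the filter had a part in the direction of these calls.

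In the other direction, the hub near Desi2, a deSUMOylating peptidase gene, had 17 and 9 PETs in the ΔhIDR libraries against 0 and 0 in the WT libraries. One of the Foxo1 hubs (chr3:52525951-52532618) had 15 and 8 against 0 and 0. The hubs near Mansc1 (7 and 11), Larp1 (16 and 3), an RNA-binding protein gene, and Nrep (7 and 10) also had 0 and 0 in the WT libraries. The edgeR adjusted p was 0.557 for each of these 5 hubs.

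**Figure D5:**
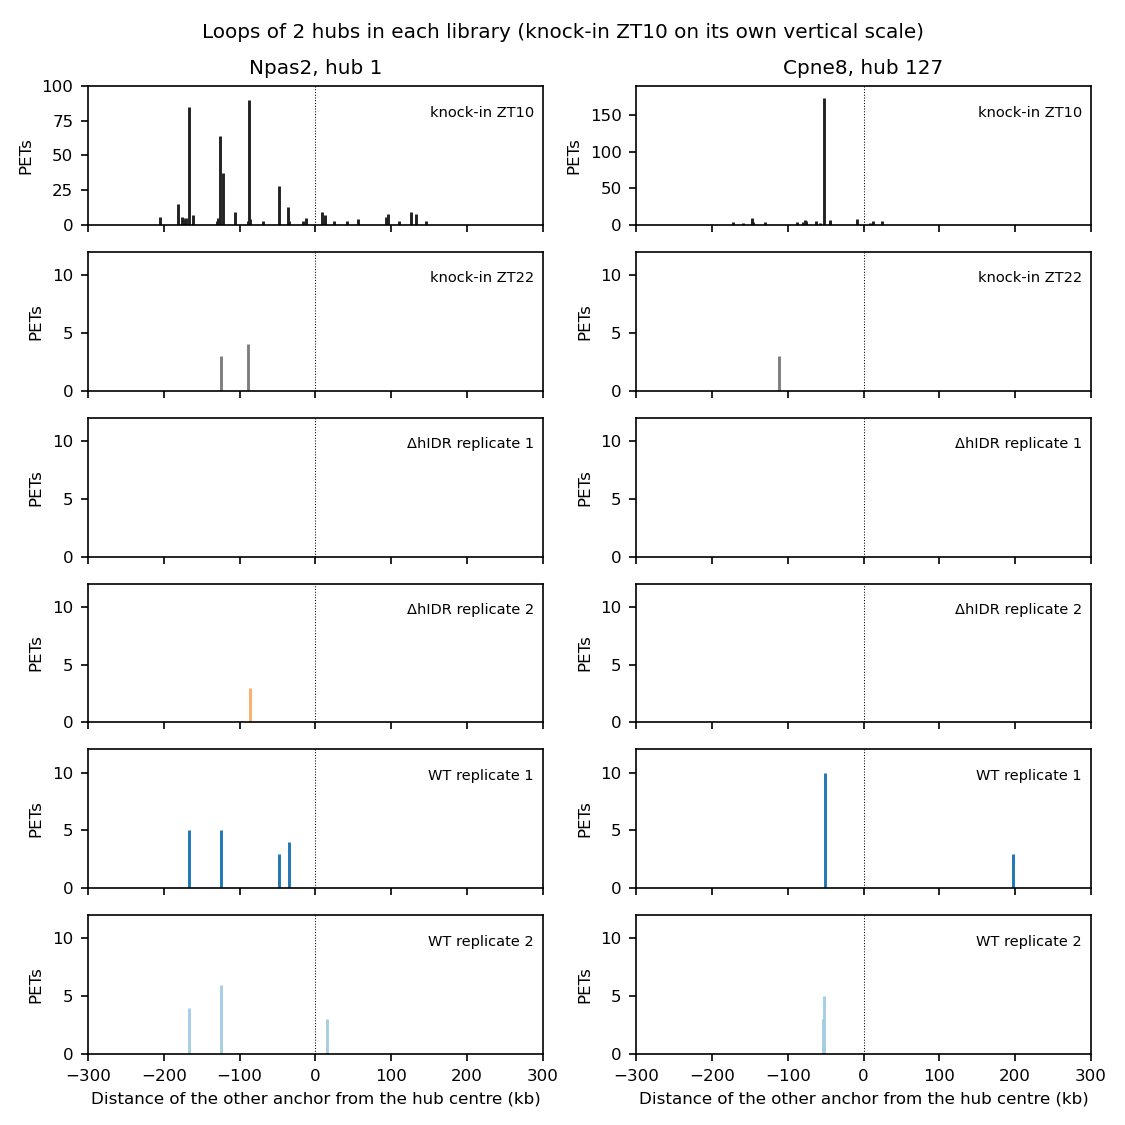
Listed loops of the Npas2 promoter hub and of the hub near Cpne8 within 300 kb, each drawn at the distance of the partner from the hub (kb) and at its height in PETs, with 1 row for each library and the ZT10 knock-in library on its own vertical scale. Beyond this range lie 9 of the 44 ZT10 loops of the Npas2 hub and 1 of the 20 of the Cpne8 hub, and 3 loops of the other libraries at each hub.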

How the data were processed

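In-situ ChIA-PET loops of 6 libraries were used, of 8 samples in the series. The deposited files list pairs of anchors with the count of PETs that join them, 3 or more, per the file contents; mm10 is the genome build per the submitters' processing notes, and the aligner and loop caller are not given in the sources used here. The counts were taken as the authors deposited them. Mitochondrial pairs and chr11 3.1 to 3.3 Mb were left out, and starts were read as 0-based.

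Anchors of the ZT10 knock-in file were merged at an overlap of 1 bp and partners counted with Python 3.11.15, pandas 2.3.3 and networkx 3.6.1. Genes and promoters came from RefSeq GRCm38.p6 tables, and 232 of 233 list entries matched. ΔhIDR against WT was fitted on counts with edgeR 4.0.16 (glmQLFit, library size as the listed PETs, at least 6 PETs over 4 libraries), with DESeq2 1.42.0 as an alternative, and the edgeR fit was tested on simulated data. Nothing in the labels pairs the replicate numbers. The deviations of same-numbered libraries from their group means had r = 0.0001635. Even the replicates of a group correlated negatively over the tested anchors, at -0.289 for ΔhIDR and -0.137 for WT. With counts this sparse the check could not decide whether the libraries are paired. Named hubs were drawn from the 20 with the most partners, clock hubs, the 10 with most PETs in the other libraries, the 5 per direction with the smallest p for ΔhIDR against WT, the 10 strongest hub pairs and list members with a hub. The members and lists were chosen with earlier results of these data known. Anchor sequences were not read, as no genome was used here.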

Additional observations from a re-analysis of the deposited data

How the results depend on the processing

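The number of hubs followed its definition: 606 with anchors up to 1000 bp apart merged, 254 from loops of 4 PETs or more, 1807 at 8 or more partners and 515 at 12 or more. The share near a gene end was 21.48% within 2 kb (all anchors 17.42%), 51.06% within 25 kb (56.19%) and, in an alternative chosen after seeing the data, 22.29% with the anchor centre within 5 kb (25.16%), so hubs stood above all anchors with the anchor edge within 2 or 5 kb and below them in the other settings. The hub-to-hub share of loops was 10.02% with 4 PETs or more, 19.06% at 8 or more partners and 10.05% at 12 or more.

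Recurrence of hub loops at an overlap of 500 bp was 0.9041% at ZT22, 0.5941% and 0.1937% in the ΔhIDR libraries, and 0.2971% and 0.3358% in the WT libraries. With the same pair of 10-kb bins it was 4.753% at ZT22, 3.926% and 1.989% in the ΔhIDR libraries, and 1.408% and 2.376% in the WT libraries. For loops of 10 PETs or more it was 4.554% at ZT22, 3.248% and 1.505% in the ΔhIDR libraries, and 1.545% and 1.822% in the WT libraries; there hub loops were not above other loops at ZT22 (4.557%) and in the first ΔhIDR library (3.445%). Hub PETs per 10000, for 2 kb at the centre, anchors at least 700 bp wide and spans of at most 2 Mb, were 3239, 4124 and 3815 at ZT10 and 93.17, 453.7 and 201.1 at ZT22. The difference of ΔhIDR minus WT was 28.55, 474.5 with anchors at least 700 bp wide, and 10.77 to 46.32 with each library left out.

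In the ΔhIDR comparison 0 anchors were called by edgeR, 4 with its default filter and 3 with the replicate numbers as a block, although nothing in the labels pairs the numbers. The 3 were the hubs near Alg10b (adjusted p = 1.42e-06), at Npas2 (0.00578) and at Rnf125 (0.0302). At the Npas2 promoter hub the log2 ratio lay between -3.51 (loops of at most 2 Mb) and -2.15 (without WT replicate 1) under the alternatives run. Each other hub named for its small p had 0 PETs in both libraries of ΔhIDR or of WT, so the sign of its ratio was fixed in advance. Not run was the motif search in anchor centres, as no genome was used here. An unlisted loop has 0 to 2 PETs, the median hub had 0 PETs in each, and a hub at 0 is not shown to lack loops.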
